A study of Mus musculus with 6 samples.

Results

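The nuclear factor I (NFI) genes Nfia, Nfib, Nfic and Nfix encode a family of transcription factors, and they were taken from the count table by matching its Ensembl identifiers to mouse gene symbols. All 4 members were found among the 34866 rows of the table, and all 4 were among the 15216 genes with enough counts to be tested. The members were chosen by their measured CPM in labelled mutants and controls, over all libraries and within each title number. The levels of the members in the groups are therefore a description. No p-value is given for a member, and nothing is read from how many members the fits over all genes called.

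NFI proteins bind DNA as dimers through a conserved domain at their amino-terminal end and can activate or repress transcription. In the embryonic mouse forebrain Nfia, Nfib and Nfix are known for moving radial glia from self-renewal towards the production of neurons and then of glia, and mice lacking one of these genes have defects of the hippocampus and of the midline of the forebrain. Nfic is best known for its part in tooth root formation. NFI factors act with Sox9 at the onset of astrocyte formation, as described in the spinal cord of mouse and chick.

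Forebrain RNA of mouse embryos, taken at stage E14.5, in mid-gestation, was sequenced. The 3 libraries labelled mutant came from embryos with 1 floxed and 1 null Sap130 allele (f/-), and the 3 control libraries from embryos with 1 floxed and 1 wild-type allele (f/+). All 6 embryos carried Emx1-cre, a driver active in dorsal telencephalic progenitors, from which cortical and hippocampal excitatory neurons and glia descend. By genotype, a control keeps 1 intact allele in these cells and their progeny and an embryo labelled mutant keeps none there, after recombination of the floxed allele, which the counts do not show; elsewhere the latter keeps 1, and forebrain cells outside the lineage are sampled in both groups. The protein made from Sap130 belongs to the Sin3 co-repressor, a histone deacetylase complex. Titles of control replicate 1 and labelled mutant replicate 1 carry SPF-539, and those of the other 4 libraries carry SPF-552. Neither label nor title says what this number marks, nor which embryos share a litter.

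Libraries held 20775583 to 25999874 estimated counts. The first principal component, with 29.5% of the variance, separated the title numbers. Sap130, the targeted gene, lay between 82.8 and 84.9 CPM (counts scaled to library size with TMM factors) in controls and between 124 and 138 CPM in labelled mutants, and a loss of its transcript was thus not seen. Every direction below is that of the libraries as labelled. The counts cover the whole gene, and the labels do not say which exons are floxed. Defining genes of the cortical lineage were present, with control means of 75.3 CPM for Pax6 of radial glia and 180 CPM for Eomes of intermediate progenitors. In bulk tissue, fewer cells of a type and less RNA per cell cannot be told apart.

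The members lie on 3 chromosomes of GRCm38. Nfia (ENSMUSG00000028565) spans chr4:97772734-98118874 on the plus strand and Nfib (ENSMUSG00000008575) spans chr4:82290173-82705750 on the minus strand. Nfic (ENSMUSG00000055053) spans chr10:81396186-81455635 and Nfix (ENSMUSG00000001911) spans chr8:84699876-84800344, both on the minus strand. Their merged exons sum to 10.9 kb for Nfia, 14.96 kb for Nfib, 6.63 kb for Nfic and 7.35 kb for Nfix, so the first pair of genes is the longer one. The library kit marks no strand. Exons of other annotated genes cover 4 bases of the exons of Nfia, 0 of Nfib, 72 of Nfic and 141 of Nfix.

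The kinship of the members is visible in their reading frames. The 90 bases below are the stretch, among ungapped codon-spaced windows of Nfia matched to the longest annotated reading frame of each other member, with the most positions identical in all 4 genes, and they lie near the 5′ end, in the part that encodes the DNA-binding domain. Capitals mark the 67 positions identical in all 4 members and lower case the 23 others (GENCODE M21 transcripts, coding strand, 5′ to 3′).
Nfia: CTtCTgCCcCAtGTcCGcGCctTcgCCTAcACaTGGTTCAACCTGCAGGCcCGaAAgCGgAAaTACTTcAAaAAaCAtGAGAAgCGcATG
Nfib: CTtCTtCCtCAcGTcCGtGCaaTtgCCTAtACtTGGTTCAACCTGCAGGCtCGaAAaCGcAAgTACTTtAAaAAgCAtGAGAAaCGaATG
Nfic: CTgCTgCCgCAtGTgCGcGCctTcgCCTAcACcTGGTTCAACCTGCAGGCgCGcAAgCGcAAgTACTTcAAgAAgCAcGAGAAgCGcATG
Nfix: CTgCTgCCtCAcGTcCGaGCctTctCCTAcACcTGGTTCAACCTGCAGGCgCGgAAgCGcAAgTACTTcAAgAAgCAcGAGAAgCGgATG

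Over whole reading frames, 70.8% to 74.9% of aligned bases were identical between pairs of members, with the highest share between Nfic and Nfix. Even so, no run of 35 bases in the annotated transcripts of one member occurs in those of another (0% of 6684 to 15043 distinct runs per member). An exact match of that length therefore belongs to a single member. Read length and the mismatches allowed in alignment are not stated in the labels.

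Nfix, required in mice for the timely differentiation of hippocampal and cortical radial glia, showed the largest difference of the family. It measured 729, 720 and 670 CPM in control replicates 1 to 3, and 530, 376 and 364 CPM in labelled mutant replicates 1 to 3. The groups did not overlap, and the labelled mutant library of SPF-539 lay between the controls and both labelled mutants of SPF-552. Means were 707 ± 31.6 CPM in controls and 423 ± 92.4 CPM in labelled mutants (SD, n = 3 each), a 1.67-fold lower level with a log2 fold change of -0.74 and a standard error of 0.13. Within SPF-539 the log2 ratio of labelled mutant to control was -0.46, and within SPF-552 it was -0.91.

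Nfib, a regulator of cortical and hippocampal gliogenesis in mice, had the highest CPM of the family. It measured 828, 885 and 911 CPM in control replicates 1 to 3, and 933, 632 and 565 CPM in labelled mutant replicates 1 to 3. The groups overlapped because labelled mutant replicate 1 had the highest value of all 6 libraries, while both labelled mutants of SPF-552 lay below every control. Means were 875 ± 42.3 and 710 ± 195.9 CPM (SD, n = 3 each), with a log2 fold change of -0.30 and a standard error of 0.16. The ratio had opposite signs in the title numbers, at 0.17 within SPF-539 and -0.59 within SPF-552.

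Nfia, which drives the start of gliogenesis in the mouse and chick spinal cord, followed the same order of libraries almost exactly. It measured 250, 283 and 281 CPM in control replicates 1 to 3, and 298, 210 and 197 CPM in labelled mutant replicates 1 to 3. Here too labelled mutant replicate 1 was the highest library and the labelled mutants of SPF-552 were the lowest. Means were 271 ± 18.3 and 235 ± 55.4 CPM (SD, n = 3 each), with a log2 fold change of -0.21 and a standard error of 0.14. Its log2 ratio was 0.25 within SPF-539 and -0.47 within SPF-552.

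Nfic was the member with the lowest level. It measured 62.8, 59.6 and 54.2 CPM in control replicates 1 to 3, and 54.3, 43.2 and 46.3 CPM in labelled mutant replicates 1 to 3. Labelled mutant replicate 1 and control replicate 3 were nearly equal, so the groups just overlapped. Means were 58.8 ± 4.36 and 47.9 ± 5.70 CPM (SD, n = 3 each), with a log2 fold change of -0.29 and a standard error of 0.10. The log2 ratio was -0.21 within SPF-539 and -0.34 within SPF-552.

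**Figure D1:**
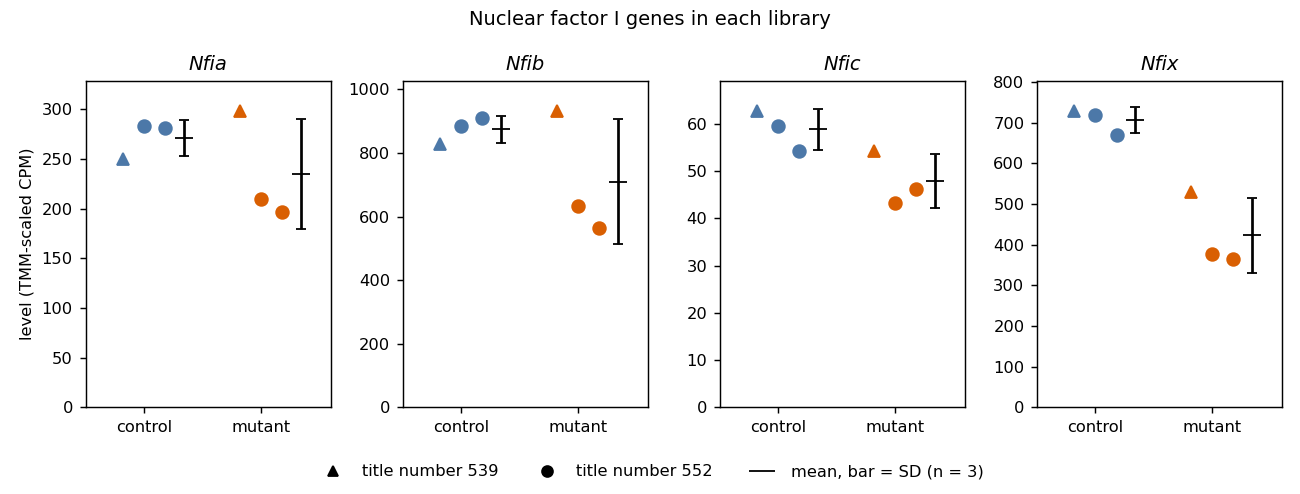
Level of each NFI gene (vertical axis, TMM-scaled CPM from 0) in the 3 control libraries and the 3 libraries labelled mutant, with triangles for title SPF-539, circles for SPF-552 and the mean with its SD at the side. Nfix values of the groups are apart (670 CPM or more against 530 CPM or less), while Nfia and Nfib are highest in the labelled mutant library of SPF-539.

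At an FDR of 0.05 by edgeR's quasi-likelihood test, 0 of the 4 members passed over all 6 libraries, where 0.138% of all tested genes did (0.112% lower and 0.0263% higher in labelled mutants). At an unadjusted p under 0.05 the count was 2 of 4, Nfic and Nfix (9.6% of tested genes), and DESeq2 called 1 of 4, Nfix (1.51% of the genes it adjusted). Called members were 1 of 4 with the title number as a block, Nfix (0.762% of tested genes in either direction, 0.513% lower), and 4 of 4 within SPF-552 alone, all lower (2.15% of tested genes were called lower there). Without labelled mutant replicate 1 the count was 4 of 4, among 330 genes called. For 1 of 4 members the groups did not overlap, with labelled mutants lower, against 8.49% of tested genes. Within SPF-552 both labelled mutants lay below both controls for all 4 members, as for 23.3% of tested genes. Since the members were chosen with this contrast known, nothing is read from these counts. The authors' deposited table, which lists 369 genes up to an FDR of 0.0994, holds 2 of the 4 members. Nfix has a log2 fold change of -0.76 there, and Nfic, with an FDR above 0.05, has -0.33. The share over all genes the authors tested is not given here, and nothing is read from this count either.

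Nfia and Nfib are the members with a higher value in the labelled mutant of SPF-539 than in its control, and 10% of all tested genes had this combination with lower values in both labelled mutants of SPF-552. They are also the members with the longest exons, and over the whole table the ratio in the SPF-539 pair was higher for genes with longer exons. Across the 1467 genes with more than 10 kb of exon the median log2 ratio was 0.27 within SPF-539 and -0.0021 within SPF-552. Across the 1578 genes with 1 to 2 kb it was -0.28 within SPF-539 and 0.0028 within SPF-552. The ratios of Nfia (0.25) and Nfib (0.17) within SPF-539 lay below the median of that longest class.

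The within-number ratios were then recomputed after a smooth trend of log2 CPM on exon length had been removed from each library, a step added after the data were examined. Nfib then stood at -0.13 within SPF-539 and Nfia at 0.04, and the values within SPF-552 hardly moved, at -0.58 and -0.47. Nfic went to -0.29 and Nfix to -0.57 within SPF-539, with -0.34 and -0.91 within SPF-552. With the trend removed 3 of the 4 members were lower in the labelled mutant of SPF-539, and Nfia was nearly level with its control. The difference between the SPF-539 and SPF-552 ratios remained above 0.3 for Nfia, Nfib and Nfix and was under 0.1 for Nfic. With 1 library per group in SPF-539, its ratios have no replicate check, and the part of exon length in them was not tested.

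**Figure D2:**
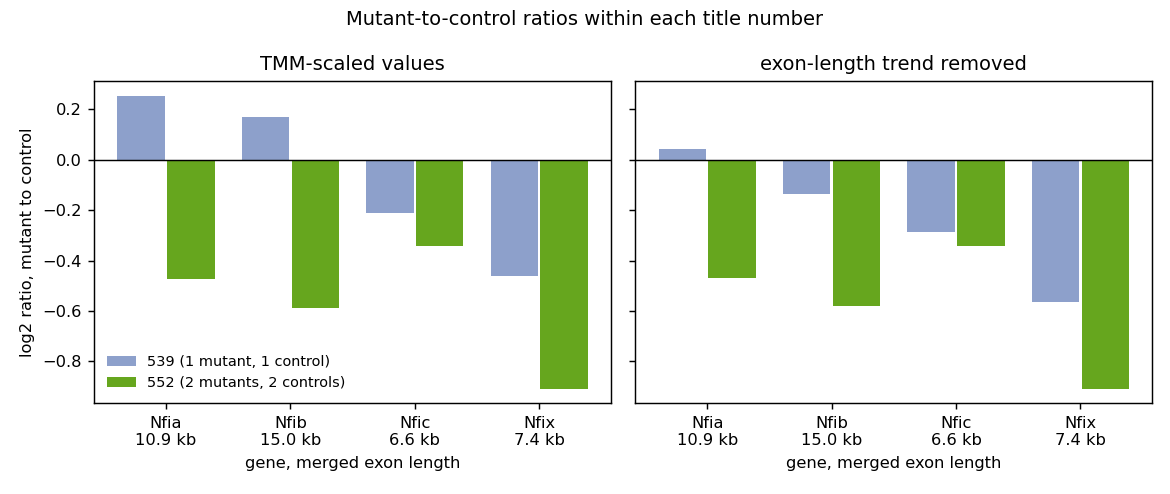
Log2 ratio of labelled mutant to control (vertical axis) within title numbers SPF-539 (1 library against 1) and SPF-552 (mean of 2 against mean of 2) for each NFI gene, with its exon length under its name. On the TMM-scaled values at the left Nfia and Nfib are above 0 within SPF-539 (0.25 and 0.17), and with the exon-length trend removed at the right they stand at 0.04 and -0.13.

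Levels were compared between members per length, as CPM per kilobase of merged exon. In controls the order was Nfix (96.1 ± 4.30), Nfib (58.5 ± 2.83), Nfia (24.9 ± 1.68) and Nfic (8.88 ± 0.657; SD, n = 3 each), and no neighbours in this order overlapped in any control. In the libraries labelled mutant the order was the same, at 57.6 ± 12.6, 47.5 ± 13.1, 21.6 ± 5.09 and 7.23 ± 0.860. There the means of Nfix and Nfib differed by less than their spread, although Nfix was above Nfib in each library. By CPM alone Nfib came first in controls and in the libraries labelled mutant.

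Summed over the 4 genes, the family level was 187, 192 and 186 CPM per kb in control replicates 1 to 3, and 170, 119 and 112 CPM per kb in labelled mutant replicates 1 to 3. Controls differed little from each other, and every library labelled mutant lay below them. For single genes, 8.49% of those tested had labelled mutants lower without overlap. The lower sum of labelled mutant replicate 1 was not shared by all members, since its Nfia and Nfib were above every control. There Nfix had 72.1 CPM per kb against 99.2 in control replicate 1, and Nfic 8.19 against 9.47. Means were 188 ± 3.18 and 134 ± 31.5 CPM per kb (SD, n = 3 each), a 1.41-fold lower sum in the libraries labelled mutant. With the exon-length trend removed the sums were 196, 195 and 185 in controls and 157, 119 and 114 in the libraries labelled mutant, again without overlap.

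The make-up of the family sum also differed between the groups, and more evenly over title numbers than the levels did. Nfix made up 53.1%, 51.0% and 49.0% of the sum in control replicates 1 to 3, and 42.4%, 42.9% and 44.1% in labelled mutant replicates 1 to 3. Nfia made up 12.3% to 13.9% in controls and 16.1% to 16.2% in the libraries labelled mutant. Neither range overlapped between the groups, and labelled mutant replicate 1, which stood apart in the levels of Nfia and Nfib, was close to the other labelled mutants in these shares. Nfib went from a mean share of 31.1% to 35.2%, and Nfic from 4.71% to 5.50%. The shares make up the whole sum, so a smaller Nfix share leaves larger shares to the other members. Mean levels of Nfia, Nfib and Nfic were themselves lower in the libraries labelled mutant. With the exon-length trend removed Nfix made up 49.3% to 51.9% in controls and 43.0% to 43.8% in the libraries labelled mutant. The ratio of Nfib to Nfia was between 2.09 and 2.41 in all 6 libraries, while the ratio of Nfix to Nfia was 3.54 to 4.32 in controls and 2.63 to 2.75 in the libraries labelled mutant.

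**Figure D3:**
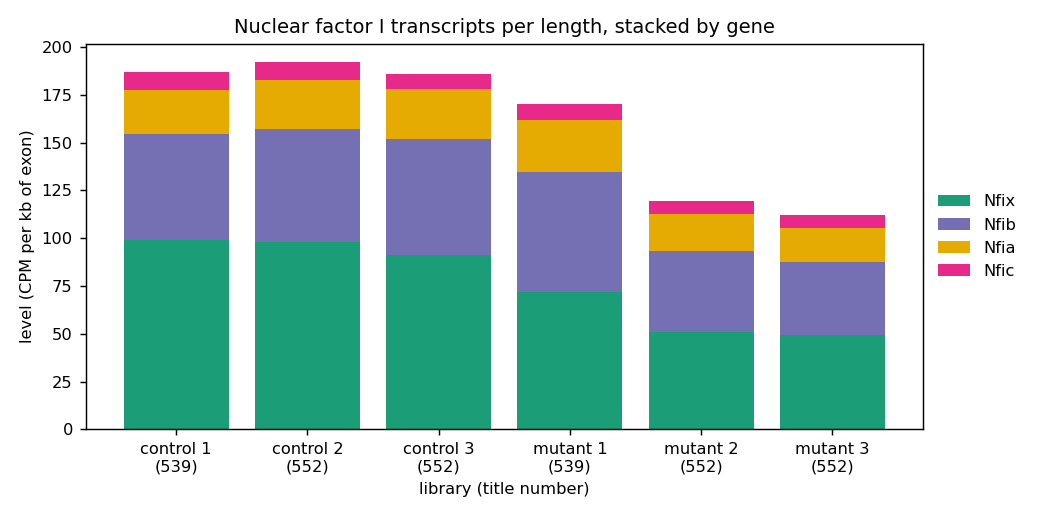
Stacked level of the NFI genes (vertical axis, CPM per kb of exon from 0) in each library, with the title number under its name. The whole bar is 186 to 192 in controls and 112 to 170 in the libraries labelled mutant, and the Nfix part at the base shortens from 91.2 or more to 72.1 or less.

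Across the 6 libraries the members formed closer and looser pairs. Pearson's r of log2 CPM was 0.986 between Nfia and Nfib and 0.945 between Nfic and Nfix, against 0.722 to 0.855 for the other 4 pairs. These values are descriptions over 6 libraries that share the group difference and the title numbers.

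The genes most like each member were named by Pearson's r of log2 CPM over the same 6 libraries, among the 10176 genes whose mean reached 10 CPM. Nfix was most like Eomes (r = 0.997), the T-box factor of intermediate progenitors, Tiam2 (0.997), which encodes an activator of Rac, and the potassium channel gene Kcnj3 (0.996). Eomes measured 186, 178 and 176 CPM in control replicates 1 to 3 and 137, 106 and 100.6 CPM in labelled mutant replicates 1 to 3, the order of libraries seen for Nfix. Nfia was most like Zfp61 (0.996), Itpr1 (0.993), a calcium release channel of the endoplasmic reticulum, and Hivep2 (0.986), a zinc-finger factor. Itpr1 went with Nfia in sign within both title numbers, with log2 ratios of 0.27 and -0.48. Since these genes were picked by r over the same libraries, shared signs follow from the choice. Exons sum to 18.3 kb for Itpr1, 13.7 kb for Hivep2 and 4.43 kb for Zfp61. Zfp61 varied little, between 18.2 and 19.7 CPM over the 6 libraries.

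Nfib was most like Zfp61 (0.996), the ubiquitin ligase gene Trim2 (0.994) and St6galnac6 (0.990), and Nfic most like Gtdc1 (0.990), Nudt19 (0.989) and Wtap (0.988). Zfp61 shares the order of the libraries but not the size of the differences, with log2 ratios of only 0.04 within SPF-539 and -0.09 within SPF-552. Genes with an r above 0.95 made up 0.403% of those compared for Nfia, 0.57% for Nfib, 0.639% for Nfic and 0.934% for Nfix.

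The title numbers themselves were compared in edgeR's quasi-likelihood fit, with the group kept in it. The values within each title number had helped to choose the members, so this too is a description. Levels of all 4 members were lower in SPF-552 than in SPF-539, with log2 differences of -0.30 ± 0.098 (SE) for Nfix, -0.28 ± 0.138 for Nfib, -0.21 ± 0.131 for Nfia and -0.21 ± 0.082 for Nfic. At an FDR of 0.05 the count was 0 of 4 members, where 0.44% of tested genes passed. At an unadjusted p under 0.05 the count was 2 of 4, Nfic and Nfix, against 16% of tested genes. Controls alone did not follow this direction for Nfia and Nfib, which measured 250 and 828 CPM in the control of SPF-539 and means of 282 and 898 CPM in the controls of SPF-552. Leaving out control replicate 1 or labelled mutant replicate 1 leaves 1 library in SPF-539. The title numbers are then compared within 1 group only, and no count is read from those fits.

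Genes known to act upstream of NFI genes or beside them showed no call. Of 9 genes 0 passed an FDR of 0.05 by edgeR's quasi-likelihood test or by DESeq2, and 2 were higher at an unadjusted p under 0.05 (median log2 fold change 0.14, against -0.00031 over all genes tested). The median was 0.06 without control replicate 1 and 0.04 without labelled mutant replicate 3. Notch1, the receptor whose signal keeps radial glia undifferentiated, had 199 ± 19.3 CPM in controls and 234 ± 11.8 CPM in labelled mutants (log2 fold change 0.23). Pax6, a dorsal progenitor factor, had a log2 fold change of 0.22, Emx2, a factor of cortical patterning, 0.18, and Sox9, the glial competence factor that induces Nfia in the spinal cord, 0.14 and did not pass.

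Genes reported as regulated by NFI proteins in forebrain progenitors or glial cells also showed no call. Of 8 genes 6 had enough counts to be tested, and Gfap and Insc did not. Among the 6, 0 passed by edgeR's quasi-likelihood test or DESeq2 and 1 was higher at an unadjusted p under 0.05 (median log2 fold change 0.08). The median was 0.03 without control replicate 1 and 0.13 without labelled mutant replicate 1. Bbx, reported as repressed by NFIX in the mouse hippocampus, had 43.0 ± 3.11 CPM in controls and 50.1 ± 1.40 CPM in labelled mutants (SD, n = 3 each), without overlap of the groups. Hes1, a Notch effector reported as repressed by NFIA, had a log2 fold change of 0.22 but -0.24 within SPF-539 and 0.42 within SPF-552. Sox9 belongs to this list too, at 0.14, and Ezh2, the histone methyltransferase reported as repressed by NFIB, had -0.05.

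Of the astroglial genes, some of them downstream of NFIA in the spinal cord, 5 had a log2 fold change above 0 and 8 below. Of 15 genes 13 were tested, S100b and Gfap having too few counts, and 1 fell and 0 rose by edgeR's quasi-likelihood test (median log2 fold change -0.05). DESeq2 called 1 higher and 2 lower, as did the edgeR fit with the title number as a block. Aldoc, a glycolytic enzyme of radial glia and astrocytes, fell from 116 ± 3.96 to 76.7 ± 6.97 CPM (SD, n = 3 each; log2 fold change -0.59, edgeR quasi-likelihood adjusted p = 0.0234), and it was lower within SPF-539 (-0.39) and SPF-552 (-0.70). Mmd2, a target of NFIA in the mouse and chick spinal cord, measured 58.9, 63.5 and 62.6 CPM in control replicates 1 to 3 and 48.8, 40.8 and 40.1 CPM in labelled mutant replicates 1 to 3. The groups of Mmd2 did not overlap, with a log2 fold change of -0.51 that did not pass (edgeR quasi-likelihood adjusted p = 0.0702). Slc1a2, a glutamate transporter, had 0.38 and Sparcl1, a matrix protein of astrocytes, -0.17, and neither passed edgeR's quasi-likelihood test without the block. The median of the list ranged from -0.12 without labelled mutant replicate 1 to -0.0018 without control replicate 1.

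NFI genes are known to be expressed both in ventricular zone progenitors and in young cortical neurons, and markers of these cells lay on opposite sides of 0. Of 13 radial glia genes 0 passed by edgeR's quasi-likelihood test or DESeq2, 2 were higher at an unadjusted p under 0.05, and 11 had a log2 fold change above 0 (median 0.12). Their summed level was 2527 to 2793 CPM in controls and 2827 to 3068 CPM in labelled mutants. Nes, an intermediate filament of progenitors, had a log2 fold change of 0.30, Sox2, a progenitor factor, 0.27, and Hopx, a radial glia gene, 0.30, beside Pax6 at 0.22.

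Of 9 intermediate progenitor genes 1 fell, Eomes, and all 9 had a log2 fold change below 0 (median -0.39). DESeq2 called 5 of the 9 lower, as did the fit with the title number as a block. Eomes had a log2 fold change of -0.65 (edgeR quasi-likelihood adjusted p = 0.0472), and Mfap4 (-0.63), the neurogenic factor Neurod1 (-0.56) and Insm1 (-0.39), a factor for the formation of these cells, did not pass that test. Their summed level was 877 to 895 CPM in controls and 662 to 719 CPM in labelled mutants. Among 12 tested deep-layer and subplate neuron genes 3 had a log2 fold change above 0 and 9 below (median -0.19). By edgeR's quasi-likelihood test 1 fell, Nxph3 (-1.28), a neurexophilin, and Sox5 (-0.50), Fezf2 (-0.37) and Crym (-0.80) did not pass. DESeq2 called 4 of the 12 lower and the fit with the block 2. Foxp2, a factor of deep-layer neurons named after its value was seen, was higher in every labelled mutant library than in any control (80.0 ± 1.85 and 102 ± 13.0 CPM, SD, n = 3 each). It did not pass by edgeR's quasi-likelihood test, with or without the block, or by DESeq2. The 10 upper-layer genes had a median of -0.12, and Bhlhe22 (-0.56), Unc5d (-0.38) and Mef2c (-0.27) did not pass edgeR's quasi-likelihood test. Without labelled mutant replicate 1 the medians were -0.34 for intermediate progenitors, -0.27 for deep-layer and -0.26 for upper-layer genes. The part of cell numbers in the values of the NFI genes was not tested.

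**Figure D4:**
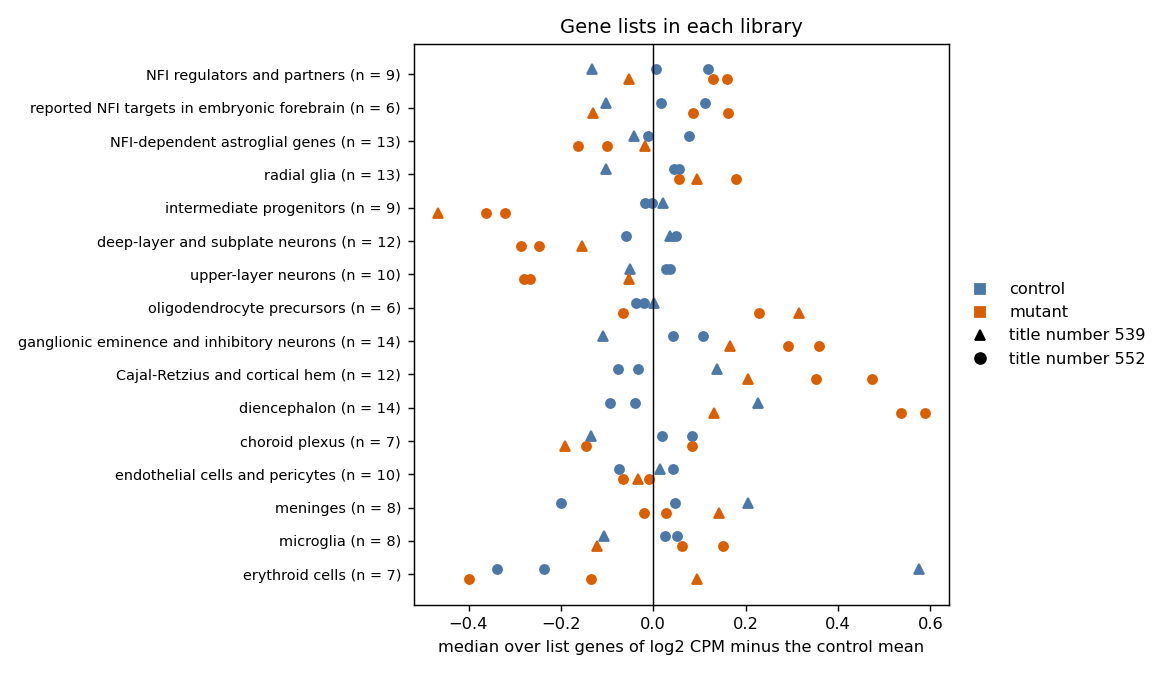
Median over each gene list of log2 CPM minus the control mean (horizontal axis) in each library, with colour for the group and shape for the title number. Intermediate progenitor genes stand at -0.32 or lower in the 3 libraries labelled mutant, while the diencephalon list is high in labelled mutants of SPF-552 only (0.54 and 0.59, against 0.13 in labelled mutant replicate 1).

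Markers of other regions and cell types also differed between the title numbers. The 14 diencephalon genes had a median log2 ratio of -0.16 within SPF-539 and 0.60 within SPF-552, and the 12 Cajal-Retzius and cortical hem genes 0.03 and 0.53. On the TMM-scaled values Nfia and Nfib had the opposite order, above 0 within SPF-539 and below 0 within SPF-552. With the exon-length trend removed they stood at 0.04 and -0.13 within SPF-539. The summed level of the diencephalon list was 391 to 449 CPM in controls and 476 to 592 CPM in labelled mutants. Most of that sum came from 1 gene, Tcf7l2, with means of 235 ± 23.1 and 308 ± 26.8 CPM (SD, n = 3 each). Both medians were 0.27 for the 14 genes of the ganglionic eminences and inhibitory neurons, and 1 of them rose, Zfhx3. Of the diencephalon and of the Cajal-Retzius and hem genes 0 passed by edgeR's quasi-likelihood test, with 5 and 6 higher at an unadjusted p under 0.05 and 2 and 3 called higher by DESeq2. The part of such tissue in the NFI values was not tested.

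Markers of other cell types had medians on both sides of 0. Medians of log2 fold change were 0.04 for choroid plexus (7 genes), -0.02 for endothelial cells and pericytes (10), 0.03 for meninges (8), 0.01 for microglia (8) and -0.22 for erythroid cells (7). Leaving out 1 library turned the sign of each of these 5 medians, with choroid plexus at -0.21 without labelled mutant replicate 3 and erythroid cells at 0.13 without control replicate 1. Oligodendrocyte precursor genes (6) had a median of 0.26, and of 0.04 without labelled mutant replicate 1. No gene of these 6 lists passed by edgeR's quasi-likelihood test or by DESeq2, and at an unadjusted p under 0.05 the counts were 1 higher in the meninges list and 1 higher among oligodendrocyte precursor genes.

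Differences fitted for the members kept their sign under every processing choice tried. All choices draw on the same libraries, and none takes SPF-539 alone, where the log2 ratios of Nfia and Nfib were 0.25 and 0.17. Nfix ranged from -0.93 to -0.64 over 17 alternatives, Nfic from -0.39 to -0.23, Nfib from -0.59 to -0.16 and Nfia from -0.47 to -0.09. Single libraries moved Nfia and Nfib by over 1.5 times. Without labelled mutant replicate 1 their log2 fold changes were -0.42 and -0.55, and without labelled mutant replicate 3 they were -0.09 and -0.16. Nfia stood at -0.14 without labelled mutant replicate 2.

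**Figure D5:**
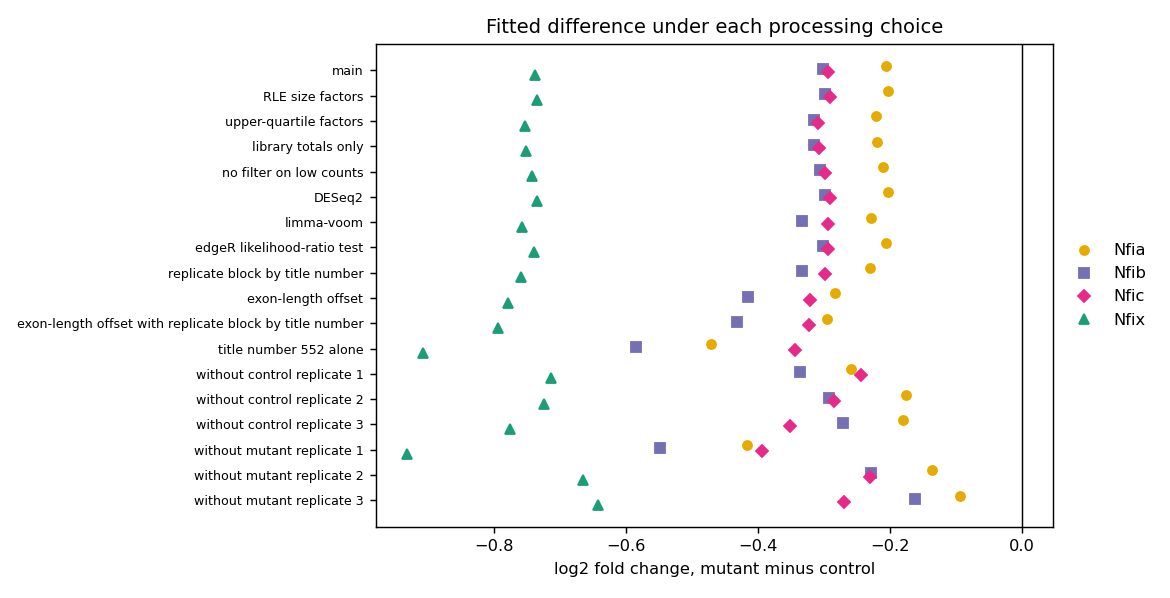
Fitted log2 fold change, labelled mutant minus control (horizontal axis), of each NFI gene under the main processing and each of 17 alternatives. All points lie below 0, Nfix stays at -0.64 or lower, and Nfia and Nfib are lowest without the libraries of SPF-539 or without labelled mutant replicate 1. No alternative uses SPF-539 alone.

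RefSeq promoter windows of GRCm38.p6 (250 bases before to 50 after a start) were at hand for Nfia, Nfic and Nfix, with 4 starts for Nfix. Gene-level counts do not tell starts apart. The Nfia window (chr4:97581693-97581992) lies upstream of the Nfia span given above, so the start of that span was not searched. The sequence TTGGC, 1 side of the palindromic site that an NFI dimer binds, was searched on both strands. It occurs in 0 windows of Nfia and Nfic and in 3 of the 4 windows of Nfix, and in 46.7% of all 32851 windows, so a match is common. The whole palindrome, TTGGC and GCCAA with 5 bases of any kind between them, occurs in 0 of these windows and in 0.0365% of all. The 250 bases before the second Nfix start (minus strand, chr8:84775829-84776078) are shown because Nfix had the largest difference of the family and these bases hold 1 match, in capitals.
Nfix start: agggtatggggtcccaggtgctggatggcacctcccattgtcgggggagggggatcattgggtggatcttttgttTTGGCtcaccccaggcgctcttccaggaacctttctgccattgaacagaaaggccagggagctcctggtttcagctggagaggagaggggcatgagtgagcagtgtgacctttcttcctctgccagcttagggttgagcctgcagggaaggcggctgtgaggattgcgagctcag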

How the data were processed

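Per the labels' protocols, RNA was column-purified with DNase treatment before TruSeq v2 library preparation. Tools named in the submitters' processing notes are edgeR 3.4.2, HTSeq 0.5.4p5 and TopHat2 2.0.9, with mm10 (GRCm38) as the build. The deposited table holds estimated counts per gene, unscaled by the authors, of which 22.7% to 24.9% per library are not exactly whole. The tool behind it is not stated in the labels. In the authors' deposited comparison, each gene has a log2 fold change, a p-value with its FDR and a likelihood-ratio score.

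Identifiers were matched without version to GENCODE M21 symbols (34652 of 34866). Counts were rounded and fitted with edgeR 4.0.16 (R 4.3.3), after filterByExpr with a count of at least 10 and a total of at least 15, with TMM factors, the robust quasi-likelihood option, and an FDR of 0.05 by Benjamini-Hochberg adjustment. Log2 CPM used a prior count of 2. The biological coefficient of variation was 12.3%. Replicates of a group differed beyond sampling noise (chi-square per gene 4.77 to 27.5). Replicates are numbered by accession, so equal numbers are no pairs, and p-values measure the spread between these libraries. Groups come from the Sap130 genotype in the labels.

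Genes named were the 4 members, Sap130, up to 4 genes by p and every called gene in each gene list described, and the 3 genes most like each member. A result that this rule would name is not reported here. Members and lists were chosen with earlier results of these data known. The scripts were tested on simulated counts with known changes. Alternatives used DESeq2 1.42.0 and limma 3.58.1 (voom), other scaling and filters, a block for title number, the SPF-552 libraries alone, an offset for exon length (lowess, span 0.3) and leaving out each library. Reading frames were aligned with Biopython 1.88 and figures drawn with matplotlib 3.10.9.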

Additional observations from a re-analysis of the deposited data

Results flagged for a closer look

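Nfia and Nfib had effects of opposite sign in the title numbers. For Nfia the log2 ratio of labelled mutant to control within SPF-552 minus that within SPF-539 was -0.727, and for Nfib it was -0.759. Each gene was higher in the 1 labelled mutant of SPF-539 than in its control, and lower in both labelled mutants of SPF-552 than in both controls. The difference was not tested, since the members were chosen with these ratios known and SPF-539 holds 1 library of each group. With the exon-length trend removed the ratios within SPF-539 were 0.04 for Nfia and -0.13 for Nfib. Those within SPF-552 were then -0.47 and -0.58. The part of exon length in these ratios was not tested.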

How the results depend on the processing

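The count of genes called, 21 over all libraries, was 130 without a filter on low counts, 194 with DESeq2, 11 with limma-voom, 150 with edgeR's likelihood-ratio test, 116 with the title number as a replicate block, 68 with the exon-length offset, 407 with that offset and the block, and 564 within SPF-552 alone. Leaving out 1 library gave 3 to 330, the highest without labelled mutant replicate 1. With RLE factors it was 20, and with upper-quartile factors or library totals 30. Nfix was called in 10 of these alternatives, and not with limma-voom, with RLE factors or on leaving out any 1 library other than labelled mutant replicate 1. All alternatives draw on the same libraries, and Nfix was chosen with this contrast known, so nothing is read from that count. Within SPF-552 alone the log2 fold changes were -0.471 for Nfia and -0.585 for Nfib. Over all libraries they were -0.207 and -0.301, and both shifts were larger than the spread between replicates. The family sum had a log2 ratio of -0.49, and -0.38 to -0.70 on leaving out 1 library. The comparison of title numbers called 67 genes, 473 with the exon-length offset and 21 to 2835 on leaving out 1 library. In the refits, 155 list medians moved by less than the spread between replicates and 5 by more. SPF-539 has 1 library of each group, which limits what its values show. Whether depth limits the members was not tested.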
